A study of Mus musculus with 8 samples.

Results

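The genes described here are 10 components of the hair cell mechanotransduction complex and of the tip link: Tmc1, Tmc2, Tmie, Lhfpl5, Cib2, Cdh23, Pcdh15, Myo7a, Ush1c and Ush1g. They were chosen by symbol, and all 10 were found among the 21895 genes measured. RNA was extracted from whole mouse cochleae of 2 genotypes, wild-type miR-29a+/+ mice (WT) and miR-29a-/- mice (KO), in which both copies of the microRNA gene are deleted. Each genotype was sequenced in 4 libraries, named WT1 to WT4 and KO1 to KO4. Both genotypes were on the C57BL/6 background, an inbred strain that carries the hypomorphic ahl allele of Cdh23 and loses high-frequency hearing with age, and neither group received a treatment. The age is given as 21 days in the series text and as 2 months in the methods of the study, for all 8 libraries. Nothing states whether a library came from 1 animal or from pooled cochleae, so p-values measure the spread between libraries.

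Hair cells convert sound into current at the tips of their stereocilia. A tip link, made of a Cdh23 pair at its upper end and a Pcdh15 pair at its lower end, pulls on a channel complex that holds the pore proteins Tmc1 and Tmc2 together with Tmie, Lhfpl5 and Cib2. At the upper end the link is anchored by the motor Myo7a and the scaffolds Ush1c (harmonin) and Ush1g (SANS). Loss of several of these proteins causes deafness or Usher syndrome, in which hearing and sight are lost together. The comparison below asks how the RNA of these genes differed between the cochleae of KO and WT mice.

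The deleted microRNA acts through its seed, bases 2 to 8, which pairs with the reverse complement TGGTGCT in the 3′-UTR of a target. The mature sequences are shown because all members of the family share that seed, in capitals, so that miR-29b and miR-29c could pair with the same sites. On GRCm38.p6, miR-29a-3p lies at chr6:31062673-31062694 on the minus strand. A copy of miR-29b-3p, from the gene Mir29b-1, lies near it at chr6:31063025-31063047 on the same strand. Whether Mir29b-1 is altered in KO was not analysed here. The RefSeq sequences were as follows.
mmu-miR-29a-3p: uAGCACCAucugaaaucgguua
mmu-miR-29b-3p: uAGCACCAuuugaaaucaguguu
mmu-miR-29c-3p: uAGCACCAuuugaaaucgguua

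None of the 10 genes held TGGTGCT in its longest annotated 3′-UTR (0 of 10). Of the 14832 tested genes with a 3′-UTR, 2294 did (15.5%), and 10 genes are too few to set apart from that share. These 3′-UTRs ran from 228 bases in Tmc2 to 3665 bases in Pcdh15, against a median of 1181 bases over the tested genes. The only shorter match, to the 6 bases GGTGCT, was in Lhfpl5, at positions 10 to 15 of its 599-base 3′-UTR, which is chr17:28583000-28583005 on the plus strand of GRCm38. It is shown with its surroundings, the 6 bases in capitals.
Lhfpl5 3′-UTR: agcaaccgaGGTGCTggccattact
The search covered the sense strand of these annotated 3′-UTRs only.

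Levels are given as FPKM, fragments counted per kilobase of a transcript after division by the mapped fragments of the library. Genes can be set side by side on this per-length scale, within the limit of the transcript length taken for each. Over all 8 libraries the mean FPKM fell in the order Cib2, Myo7a, Ush1c, Cdh23, Lhfpl5, Tmc1, Tmie, Pcdh15, Ush1g and Tmc2, from 13.5 for Cib2 to 0.215 for Tmc2. Cib2 was above Myo7a in 8 of 8 libraries, whereas Myo7a was above Ush1c in only 4 of 8. The ranges of neighbouring genes in this order overlapped for every pair but Pcdh15 and Ush1g, where the lowest Pcdh15 value of 1.58 was above the highest Ush1g value of 0.751. Among all genes of the file, the median percentile of Cib2 over the libraries was 76.9 and that of Tmc2 was 29.2. Tmc1, Tmie, Lhfpl5, Cdh23 and Pcdh15 sat close together, with median percentiles of 43.9 to 46.8.

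**Figure D1:**
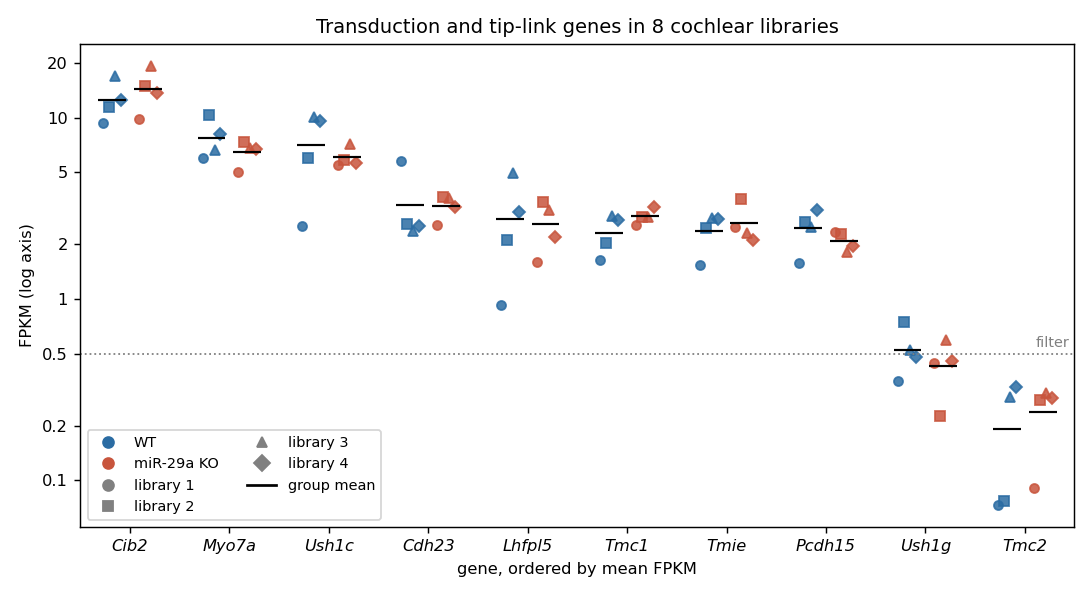
FPKM of the 10 genes (log axis) in each of the 8 libraries, with WT in blue, KO in red, a marker shape per library number and a black bar at each group mean. The WT and KO points overlap for every gene, and WT1 (blue circle) is the lowest of the 8 points for 7 genes and the highest for Cdh23.

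The depth of the libraries is not given with FPKM. It was estimated from the smallest steps between low values at 21500000 to 26400000 fragments per library, but only 46.3% to 53.6% of the low values lay within 0.1 of a whole fragment, so these are estimates. The libraries differed in the summed levels of marker genes of several cell types. Hair cell markers were present in all 8 libraries, with a summed FPKM over 17 genes of 42.9 to 76.4 in WT and 42.1 to 63 in KO, and Atoh1 and Barhl1 were the 2 that did not reach the filter of 0.5 FPKM. Genes of marrow cells were present too, and 8 neutrophil markers summed to 9440 in WT1, to 51.7 in WT3, to 660 and 906 in WT2 and WT4, and to 1670 to 5070 in KO. Of the 8 libraries WT1 thus had the highest neutrophil sum and WT3 the lowest. The erythroid sum was 7390 in WT1, below 8420 in KO2 and 12000 in KO3, and the lowest, 449, was again in WT3. The sums of supporting cell and neuron markers were lowest in WT1, at 206 and 352, and highest in WT3, at 477 and 1010. The fibrocyte sum of 1800 in WT1 was not low, but 1560 of it was Coch. Of the fibrocyte markers, Pou3f4 and Tbx18 were lower in WT1 than in WT2 to WT4, whereas Coch, Otos and Car3 were not. Fold changes and ratios of the members that rest on WT1 are given with and without it. Counts over the marker lists are given with WT1 only.

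None of the 8 genes that reached a mean FPKM of 0.5 differed between KO and WT at an unadjusted p under 0.05 (0 of 8, limma), against 5.12% of all 14990 genes tested. Ush1g and Tmc2 stayed below that mean and were fitted without the filter, with unadjusted p-values of 0.431 and 0.489. No gene of the whole table had an adjusted p under 0.05 (Benjamini-Hochberg), and 767 passed the unadjusted threshold, 691 higher (4.61%) and 76 lower (0.507%) in KO. That split was 402 to 363 after median-ratio scaling and 378 to 547 after quantile normalization. The median log2 fold change of the 8 tested members was 0.07, beside 0.10 over all tested genes. The values of WT and KO overlapped for all 10 genes, while 3.5% of all tested genes had groups that did not overlap. The intervals given with each gene show the sizes of difference that 4 libraries per genotype leave possible.

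The pore-forming subunits Tmc1 and Tmc2 lay far apart. Tmc1 (ENSMUSG00000024749, chr19:20783458-20954202, minus strand, GRCm38), the pore subunit of mature cochlear hair cells, had 1.64, 2.03, 2.88 and 2.72 FPKM in WT1 to WT4 and 2.57, 2.82, 2.85 and 3.23 in KO1 to KO4. The group means were 2.32 ± 0.585 for WT and 2.87 ± 0.272 for KO (SD, n = 4 each). WT1 and WT2 were the lowest libraries and KO4 was the highest, but WT3 and WT4 lay inside the KO range. The log2 fold change was 0.33 (SE 0.22, 95% confidence interval -0.18 to 0.84, adjusted p = 0.947, limma), which spans 0.88-fold to 1.79-fold, and without WT1 it was 0.18.

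Tmc2 (ENSMUSG00000060332, chr2:130195194-130264445, plus strand), which is used by developing cochlear hair cells and by vestibular ones, had 0.0732, 0.0773, 0.287 and 0.325 FPKM in WT and 0.0904, 0.276, 0.303 and 0.285 in KO. WT1, WT2 and KO1 formed a low set, and the other 5 libraries lay between 0.276 and 0.325. By the estimated depth the low values stood for 4.6 to 7.7 fragments per library and the higher ones for 16 to 23, so single fragments weigh on them. The log2 fold change, fitted without the filter, was 0.28 (SE 0.39, interval -0.61 to 1.18), and it was 0.08 without WT1 and 0.54 without KO1. Tmc1 exceeded Tmc2 in all 8 libraries, by 8.36-fold to 28.5-fold with a median of 10.8-fold. With 0.1 added to each FPKM, the log2 ratio of Tmc1 to Tmc2 averaged 3.15 ± 0.38 over the WT and 3.19 ± 0.43 over the KO libraries (SD, n = 4 each). The difference was 0.04 (exact two-sided permutation test, p = 0.857, adjusted p = 0.857 over 3 ratios).

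The other components of the channel complex showed no called difference. Tmie (ENSMUSG00000049555, chr9:110865711-110880500, minus strand), a small membrane protein needed for the channel to work, had 1.54, 2.45, 2.8 and 2.75 FPKM in WT and 2.49, 3.56, 2.31 and 2.12 in KO. Its log2 fold change was 0.14 (SE 0.26, interval -0.46 to 0.74, adjusted p = 0.983, limma). WT1 was the lowest library and KO2 the highest, and the other 6 lay between 2.12 and 2.8. In GENCODE release M21, where Tmie ends at 110880113, 244 of its exonic bases (7.89%) overlap Als2cl on the other strand. The overlap within the longer Tmie locus given above was not counted. Als2cl had 4.25 to 7.28 FPKM, above Tmie in every library. The libraries were strand-specific, but the strand setting of the counting is not given in the sources used here, so reads of the shared bases cannot be assigned with certainty.

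Lhfpl5 (ENSMUSG00000062252, chr17:28575641-28585679, plus strand), which links Pcdh15 to the channel, had 0.924, 2.11, 4.97 and 3 FPKM in WT1 to WT4. In KO1 to KO4 it had 1.59, 3.44, 3.08 and 2.2. Its lowest and highest values were both in WT, 5.38-fold apart, the widest spread of the 10 genes. The log2 fold change of 0.07 therefore had a wide interval, from -1.02 to 1.16 (SE 0.48, adjusted p = 0.991, limma).

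Cib2 (ENSMUSG00000037493, chr9:54544794-54560218, minus strand), a calcium- and integrin-binding protein that binds the Tmc proteins, was the most abundant of the 10. It had 9.29, 11.5, 16.9 and 12.6 FPKM in WT and 9.81, 14.9, 19.3 and 13.6 in KO. The means were 12.6 ± 3.21 and 14.4 ± 3.9 (SD, n = 4), with a log2 fold change of 0.19 (SE 0.25, interval -0.37 to 0.75, adjusted p = 0.975, limma). The library numbered 1 was lowest and that numbered 3 highest in both groups, although the labels do not say that the numbers mark pairs. Without WT1 the log2 fold change was 0.05 and without KO3 0.03. Of the exonic bases of Cib2, 227 (15.84%) overlap Sh2d7 on the other strand, a gene listed at no more than 0.0838 FPKM in any library.

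The 2 cadherins of the tip link did not follow each other across the libraries. Cdh23 (ENSMUSG00000012819, chr10:60302748-60696490, minus strand) had 5.74 FPKM in WT1 and 2.59, 2.36 and 2.54 in WT2 to WT4. In KO1 to KO4 it had 2.55, 3.65, 3.61 and 3.23. WT1 stood above all 7 other libraries, and 3 of the 4 KO libraries stood above WT2 to WT4. With WT1 the log2 fold change was 0.07 (SE 0.30, interval -0.62 to 0.75, adjusted p = 0.989, limma). Without WT1 it was 0.36 (interval -0.06 to 0.77, adjusted p = 0.311, limma). The gene Vsir lies within Cdh23 on the other strand, at chr10:60346851-60372684, and shares no exonic base with it (0 bases). Vsir, an immune checkpoint gene of myeloid cells, had 30.9 FPKM in WT1, 3.42 to 8.27 in the other WT libraries, and 17.6, 6.47, 9.70 and 6.93 in KO1 to KO4. The part of Vsir reads or of marrow RNA in the Cdh23 value of WT1 was not tested.

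Pcdh15 (ENSMUSG00000052613, chr10:73099342-74649737, plus strand), the lower part of the link, had 1.58, 2.66, 2.51 and 3.08 FPKM in WT and 2.33, 2.29, 1.81 and 1.95 in KO. WT1 was the lowest library, and WT2, WT3 and WT4 were the 3 highest. The log2 fold change was -0.19 (SE 0.24, interval -0.74 to 0.36, adjusted p = 0.974, limma). Without WT1 it was -0.38 (interval -0.80 to 0.04, adjusted p = 0.293, limma).

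The log2 ratio of Cdh23 to Pcdh15 was 1.80 in WT1 and -0.04, -0.09 and -0.27 in WT2 to WT4, and 0.13, 0.65, 0.96 and 0.70 in KO1 to KO4. It averaged 0.35 ± 0.97 over the WT and 0.61 ± 0.35 over the KO libraries (SD, n = 4 each). The difference was 0.26 (exact two-sided permutation test, p = 0.657, adjusted p = 0.857 over 3 ratios). In FPKM, all 4 KO libraries had more Cdh23 than Pcdh15, and 3 of the 4 WT libraries had slightly less, with WT1 far above both. The sign of a ratio near 0 depends on the transcript length taken for each gene. Pcdh15 has 29 annotated coding transcripts, of 1891 to 9104 bases. Without WT1 the groups did not overlap and the difference was 0.74 (exact permutation test, p = 0.0571). That is the smallest p that 3 against 4 libraries can give, so the design without WT1 cannot pass 0.05.

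**Figure D2:**
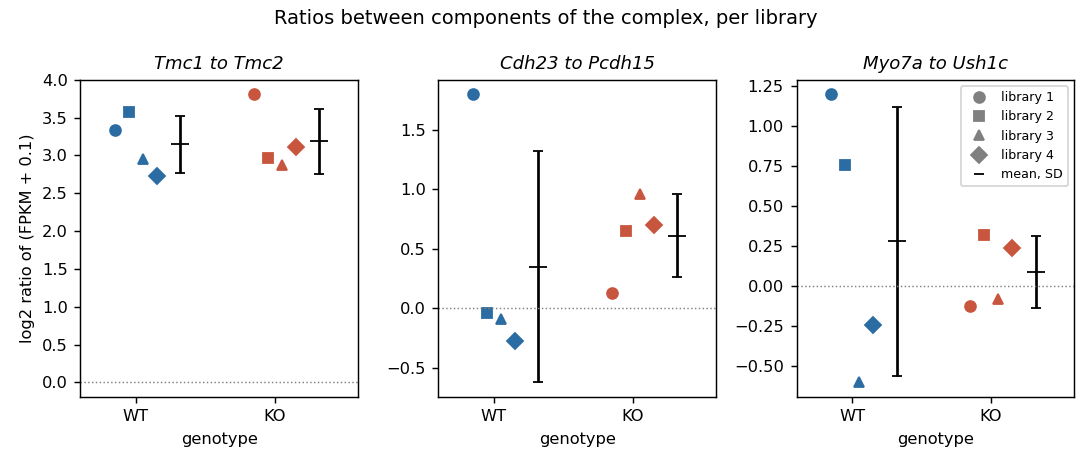
Log2 ratios of FPKM plus 0.1 for Tmc1 to Tmc2, Cdh23 to Pcdh15 and Myo7a to Ush1c, with 1 point per library, a marker shape per library number, and the mean and SD of each group (n = 4) in black. In the middle panel WT1 lies at 1.80, above every KO library, and the other 3 WT libraries lie below every KO library.

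Of the proteins that anchor the upper end of the link, Myo7a (ENSMUSG00000030761, chr7:98051060-98119524, minus strand), the myosin motor, had 5.97, 10.3, 6.66 and 8.08 FPKM in WT. In KO it had 5.02, 7.35, 6.8 and 6.71. WT2 was the highest library and KO1 the lowest, and the rest overlapped. The means were 7.74 ± 1.9 in WT and 6.47 ± 1.01 in KO (SD, n = 4), with a log2 fold change of -0.24 (SE 0.21, interval -0.71 to 0.24, adjusted p = 0.957, limma). Without WT2 it was -0.09. After quantile normalization the value was -0.38 with an unadjusted p of 0.0334 and an adjusted p of 0.794 (limma), so the unadjusted call depends on how the libraries are scaled.

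Ush1c (ENSMUSG00000030838, chr7:46195350-46238503, minus strand), the scaffold harmonin that holds Cdh23 and Myo7a together, had 2.54, 6.03, 10.1 and 9.58 FPKM in WT1 to WT4 and 5.47, 5.86, 7.19 and 5.65 in KO1 to KO4. All 4 KO libraries lay within the WT range, which was wide (means 7.07 ± 3.52 for WT and 6.04 ± 0.78 for KO, SD, n = 4 each). Its log2 fold change was -0.05 (SE 0.40, interval -0.97 to 0.86, adjusted p = 0.992, limma). Without WT1 it was -0.47 with an unadjusted p of 0.0483 and an adjusted p of 0.253 (limma). The log2 ratio of Myo7a to Ush1c averaged 0.28 ± 0.84 over the WT and 0.09 ± 0.22 over the KO libraries (SD, n = 4 each). The difference was -0.19 (exact two-sided permutation test, p = 0.743, adjusted p = 0.857 over 3 ratios). Without WT1 the difference was 0.12 (exact permutation test, p = 0.686).

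Ush1g (ENSMUSG00000045288, chr11:115315192-115322041, minus strand), the scaffold SANS, was the least abundant gene after Tmc2. It had 0.351, 0.751, 0.52 and 0.477 FPKM in WT and 0.444, 0.225, 0.591 and 0.457 in KO, which stood for an estimated 16 to 55 fragments. Both its highest and its lowest value were in libraries numbered 2, WT2 and KO2. The fit without the filter gave a log2 fold change of -0.25 (SE 0.31, interval -0.95 to 0.45, unadjusted p = 0.431). It was -0.04 without KO2 and -0.40 without WT1.

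Leaving out WT1 changed the whole comparison. Without it 2922 of 15019 tested genes had an unadjusted p under 0.05 (19.5%). Among the members 1 of 8, Ush1c, did so, a count too small to set apart from that share. Pcdh15 was the 1 member of 10 whose groups then no longer overlapped, against 18.4% of the tested genes. The log2 fold change of Tmie went from 0.14 to -0.05 and that of Lhfpl5 from 0.07 to -0.34, with intervals that included 0 in both fits. Neutrophil markers summed to 9440 in the library left out, and the part of marrow RNA in these shifts was not tested.

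**Figure D3:**
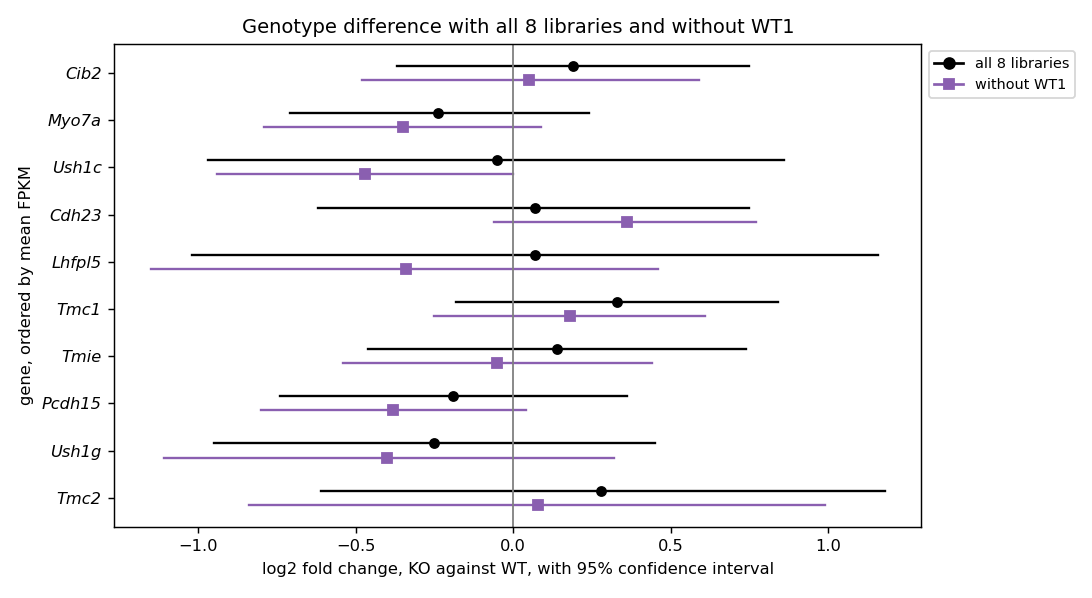
Log2 fold change of each gene, KO against WT, with its 95% confidence interval, for all 8 libraries (black circles) and without WT1 (purple squares); Ush1g and Tmc2 come from the fit without the filter. All black intervals include 0, and of the purple ones that of Ush1c, from -0.94 to just under 0, does not.

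The lowest values of these genes fell mostly in the same library. WT1 held the lowest value of 7 of the 10 genes, all but Cdh23, Myo7a and Ush1g. The mean over the 8 tested members, on the log2 scale of FPKM plus 0.1, was 1.51, 2.0, 2.29 and 2.21 in WT1 to WT4 and 1.80, 2.22, 2.16 and 1.99 in KO1 to KO4. WT1 was the lowest library, WT3 the highest, and all KO libraries lay between them. The 5 other genes whose levels were most like this mean were Anxa6, Hprt, Plbd2, Srxn1 and Kbtbd8, with Pearson's r of 0.994, 0.988, 0.986, 0.986 and 0.984 over the 8 libraries. They are the highest of 14990 genes over only 8 points, and r is given as a description.

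**Figure D4:**
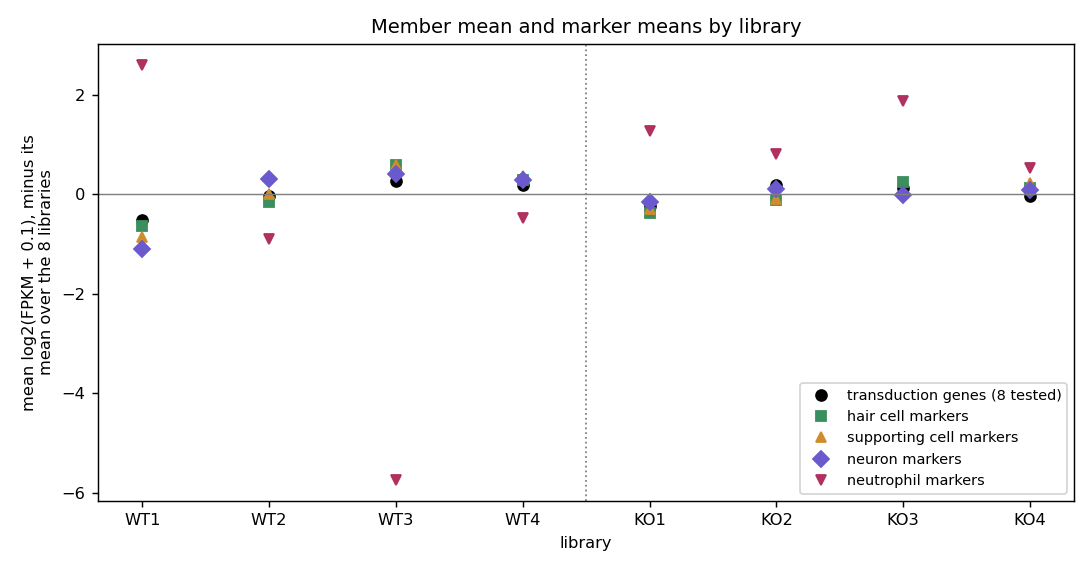
Mean log2(FPKM + 0.1) in each library, less its mean over the 8 libraries, for the 8 tested transduction genes, for hair cell, supporting cell and neuron markers, and for neutrophil markers. All 4 ear lists are lowest in WT1 and highest in WT3, and the neutrophil markers are highest in WT1 and lowest in WT3.

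Each gene was then set against the mean of 15 hair cell markers, a relation chosen after the values had been seen. That mean was 0.66, 1.14, 1.88 and 1.58 in WT1 to WT4 and 0.92, 1.18, 1.55 and 1.43 in KO1 to KO4 on the log2 scale. Gfi1, 1 of the 15, is also used in neutrophils and was lowest in WT3, at 3.19 FPKM, where the mean was highest. The relation was not repeated without Gfi1. No hair cell marker was called between the genotypes (0 of 15 tested, limma, unadjusted p under 0.05), and their median log2 fold change was -0.11. In whole cochlea, fewer hair cells and less RNA per hair cell cannot be told apart. Myo7a, Cib2 and Pcdh15 are also used outside hair cells, so their whole-cochlea levels cannot be read as hair cell levels. The points also share their libraries and the scaling of FPKM.

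Of the 10 genes, 5 had an unadjusted p under 0.05 for r (exact permutation test), all with positive r. Of the 14975 tested genes that are no hair cell markers, 34.2% passed that threshold, and 26.9% with positive r. The median r of those genes was 0.429. For Ush1c, Pearson's r was 0.902 (exact permutation p = 0.00124, adjusted p = 0.0352 over all those genes) and Spearman's rho 0.905 (adjusted p = 0.139), and 2.09% of the genes had an r at least as high. For Lhfpl5, r was 0.897 (exact permutation p = 0.0028, adjusted p = 0.0449) and rho 0.833 (adjusted p = 0.175), with 2.36% of the genes at least as high. Adjusted p-values under 0.05 for r were had by 7.57% of the genes. Tmc2, which is below the filter, had an r of 0.827 (unadjusted exact permutation p = 0.00637) and a rho of 0.905, and 9.94% of the genes reached that r. Cib2 had an r of 0.822 (exact permutation p = 0.0137, adjusted p = 0.081) and a rho of 0.786 (adjusted p = 0.204), a value of r that 10.7% of the genes reached. Without WT1 and WT3, the libraries farthest from the median, r was 0.734 for Ush1c, 0.645 for Lhfpl5, 0.828 for Tmc2 and 0.687 for Cib2. A relation particular to hair cells cannot be read from these values.

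Tmc1 had an r of 0.737 (exact permutation p = 0.0361, adjusted p = 0.125) and a rho of 0.738, with 22.2% of the genes at or above that r, and r was 0.476 without WT1 and WT3. Tmie, Pcdh15, Ush1g and Myo7a had r of 0.481, 0.431, 0.339 and 0.276 and rho of 0.452, 0.405, 0.452 and 0.31, with unadjusted exact permutation p-values of 0.22 to 0.52 for r. Cdh23 was the 1 gene with a negative value, with r of -0.589 and rho of -0.595 (exact permutation p = 0.124, adjusted p = 0.241 for r). Without WT1 and WT3, r was -0.221 for Tmie, -0.115 for Pcdh15 and 0.318 for Cdh23, so the signs of these 3 rest on those libraries. When each library was scaled by the hair cell marker mean, the members' log2 fold changes ran from -0.21 for Ush1g to 0.37 for Tmc1, with a lowest unadjusted p of 0.179 (limma).

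**Figure D5:**
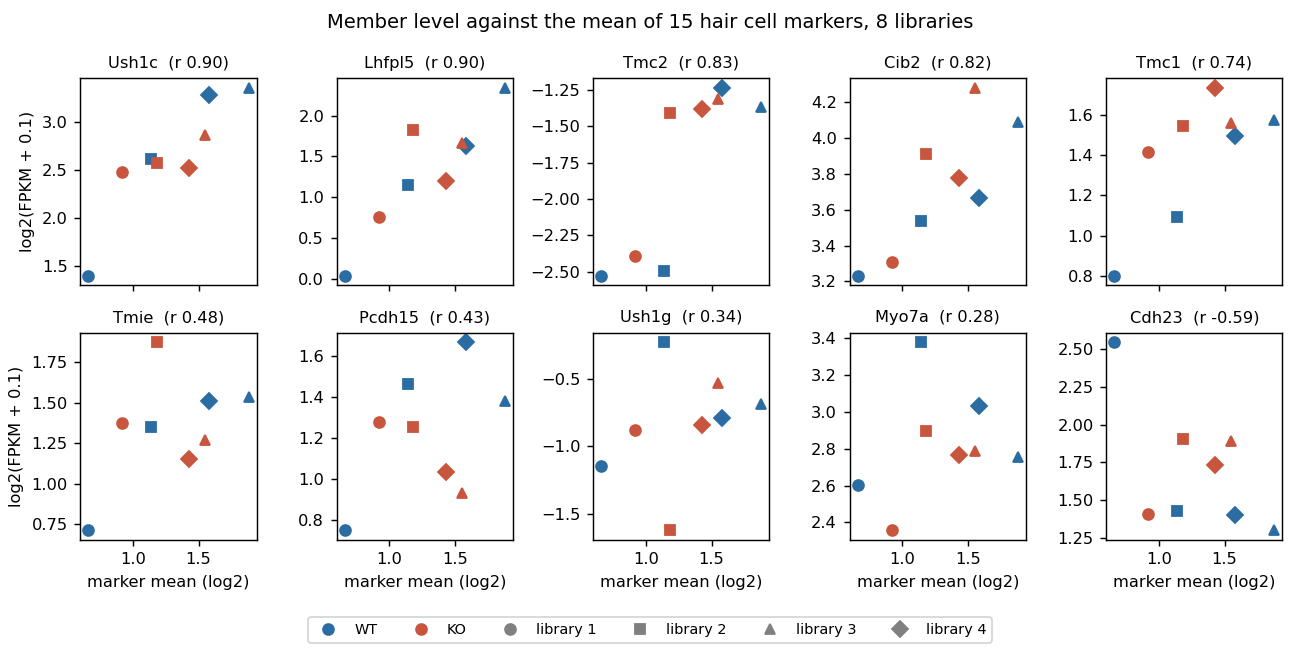
Level of each gene, log2(FPKM + 0.1), against the mean log2 level of 15 hair cell markers in the 8 libraries, with WT in blue, KO in red and Pearson's r above each panel. Ush1c and Lhfpl5 are lowest in WT1 and highest in WT3, the libraries with the lowest and the highest marker mean, and Cdh23 is highest in WT1, where the markers are lowest.

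Other genes of the same pathway were counted next. Of 12 further transduction and Usher genes, 11 were tested, 1 rose in KO and 0 fell, with a median log2 fold change of 0.01. Over all tested genes 4.61% were higher and 0.507% lower, and a count of 1 in 11 is near that share. The gene that rose was Myo1c, a myosin linked to adaptation of the transduction channel that is expressed in most tissues. It had 19.9, 20.6, 19.1 and 21.2 FPKM in WT and 24, 29.5, 24.4 and 25.8 in KO. The groups did not overlap, and the log2 fold change was 0.36 (SE 0.12, unadjusted p = 0.0148, adjusted p = 0.947, limma). After median-ratio scaling it was 0.26 (unadjusted p = 0.0809, limma) and relative to the hair cell markers 0.40 (unadjusted p = 0.209, limma), so that the call was lost in both, as it was with replicates 1 to 3 only (unadjusted p = 0.0561, limma). The most abundant genes of the list were Atp2b2, the calcium pump of stereocilia, at 36.1 ± 17 in WT and 27.9 ± 9.39 in KO, Myo1c, and Whrn, the scaffold whirlin, at 15.5 ± 6.33 and 14.4 ± 2.02 (SD, n = 4). Neither Atp2b2 nor Whrn passed the test, with log2 fold changes of -0.26 and 0.01.

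Relatives of the members by sequence family numbered 15, of which 11 were tested, 1 rose and 0 fell, again near the shares of 4.61% and 0.507% over all tested genes. Their median log2 fold change was 0.18, and Anks4b was listed at 0 in every library. Tmc6, a member of the Tmc family found in lymphocytes and other tissues, had 6.86, 12.6, 9.31 and 14.5 FPKM in WT and 11.7, 17.3, 16.9 and 18.7 in KO. Its groups overlapped, and its log2 fold change was 0.61 (SE 0.26, unadjusted p = 0.0431, adjusted p = 0.947, limma). B lineage markers had a summed FPKM of 1.49 to 40.1 in WT, lowest in WT3, and 26.2 to 75 in KO, so the groups overlapped. Of these markers 3 of 6 were higher in KO at the unadjusted threshold, against 4.61% of all tested genes. None of the B lineage markers had an adjusted p under 0.05 (limma). Their part in the Tmc6 value was not tested. The call was lost when WT1, WT3, KO2, KO3 or KO4 was left out, with log2 fold changes of 0.41 to 0.58 (unadjusted p = 0.0814 to 0.105, limma), and without the variance trend (unadjusted p = 0.051, limma). Without both WT1 and WT3 the log2 fold change was 0.23 (unadjusted p = 0.284, limma). Lhfp, Lhfpl4 and Lhfpl2 were the most abundant relatives, at 17.9, 14.4 and 13.8 FPKM over all libraries, each above Lhfpl5 and none called. Among hair cell markers the most abundant were Ptprq, a phosphatase of the stereocilia base, the calcium buffer Ocm of outer hair cells, and Otof, the calcium sensor of the inner hair cell synapse. Their WT means were 12.7, 13.1 and 6.75 FPKM and their KO means 12.4, 11.2 and 5.58.

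Further marker lists were counted in the same fit. None of 9 supporting cell, 3 vestibular, 7 neuron, 6 Schwann cell, 5 fibrocyte and 8 neutrophil markers tested passed the unadjusted threshold in either direction. Of 7 stria markers 2 were lower in KO, and 1 of 8 bone, 2 of 7 erythroid and 1 of 6 muscle markers were higher, beside 0.507% lower and 4.61% higher over all tested genes.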

How the data were processed

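Cochlear RNA was sequenced in 4 WT and 4 miR-29a KO strand-specific libraries after ribosomal RNA removal. Reads were mapped by the authors with Hisat2, and the values they deposited are FPKM for each gene, with no further scaling between libraries visible. The authors tested counts with DESeq2, and counts were not used here. The labels name the build mm9, but 19784 of 21760 gene identifiers had the GRCm38 coordinates of GENCODE release M21, which gave exons and 3′-UTRs. Symbols of 27 genes that had turned into dates were restored, and 0 sample columns were left unused. The genotype labels were not checked against the deleted miR-29a, which was not analysed here.

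Genes averaging 0.5 FPKM or more were fitted as log2(FPKM + 0.1) with limma 3.58.1 in R 4.3.3, with a variance trend and genotype as the only factor. A two-sided unadjusted p under 0.05 was the threshold, as in the study. The study gives n = 3 per group for its differential expression, whereas all 4 libraries per genotype were fitted here. Fold changes on this scale understate low genes. Ratios and correlations were tested by exact permutation with scipy 1.17.1, the correlations over all tested genes. Data of 14990 genes were simulated for this comparison, with noise independent between genes. Of 200 genes changed by 2 on the log2 scale, 191 passed the unadjusted threshold and 148 the adjusted one. Of the unchanged genes 4.67% were called. Changes as small as those of the members were not simulated, so the power to find them is not given. Depth was estimated, so counting intervals were not given.

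The members, lists and markers were chosen with earlier results of these data known. Named are all members, the called genes and 3 most abundant genes of the pathway, relative and hair cell lists, and the 5 genes most like the member mean. Alternatives were another pseudocount, other filters, 2 scalings, a scaling by hair cell markers with and without Gfi1, no trend, a replicate block, replicates 1 to 3, and fits without single libraries or without WT1 and WT3. Same-numbered libraries were checked as pairs by the correlation of their deviations from the group means.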

Additional observations from a re-analysis of the deposited data

Results flagged for a closer look

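Of 26 groups of 4 values tested for a single value far from the rest, 3 were found, and chance gives about 1 in 20. Tmc2 in KO was one, where KO1 at 0.0904 FPKM lay below 0.276 to 0.303 in the others, a gap of 0.909 of the whole range on the log2 scale. Cdh23 in WT was another, where WT1 at 5.74 FPKM lay above 2.36 to 2.59, a gap of 0.896 of the range. The log2 ratio of Cdh23 to Pcdh15 in WT was the last, where WT1 at 1.80 lay above -0.27 to -0.04, a gap of 0.889 of the range. The 2 values of WT1 share the same Cdh23 measurement.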

How the results depend on the processing

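All values here are log2 fold changes or log2 ratio differences, KO against WT, or counts of genes with an unadjusted p under 0.05. Tmc1, Tmc2, Cib2, Pcdh15, Myo7a and Ush1g kept their sign in every alternative tried, but not their size. Leaving out 1 library at a time gave 0.18 to 0.44 for Tmc1, 0.08 to 0.54 for Tmc2, 0.03 to 0.36 for Cib2, -0.38 to -0.07 for Pcdh15, -0.35 to -0.09 for Myo7a and -0.40 to -0.04 for Ush1g. With median-ratio scaling Lhfpl5 was -0.02 and Cdh23 -0.03, and the median of all genes went from 0.10 to 0.00 and the split of called genes from 691 higher and 76 lower to 402 and 363. With quantile normalization Tmie was -0.06, Lhfpl5 -0.12, Cdh23 -0.11 and Myo7a -0.38, and 1 member was called among 378 genes higher and 547 lower. With replicates 1 to 3 only, Cdh23 was -0.02, Ush1c 0.18 and the Tmc1 to Tmc2 ratio -0.07, and without a pseudocount that ratio was -0.17. Scaling by hair cell markers called 374 genes, and without Gfi1, an alternative added after seeing the data, 382 genes with Ush1c at 0.03. Without WT1 and WT3, added likewise, 2430 genes and 1 member, Myo7a at -0.50 (unadjusted p = 0.035), were called, with Tmie at -0.01 and Lhfpl5 at -0.03.

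Leaving out each library in turn called 347 to 2922 genes and 0 to 1 members. The 2922 came without WT1 and the 347 without KO3, and 377 came without KO2. Over these fits Tmie ran from -0.05 to 0.23, Lhfpl5 from -0.34 to 0.43, Cdh23 from -0.06 to 0.36 and Ush1c from -0.47 to 0.18. The ratio of Tmc1 to Tmc2 ran from -0.17 to 0.19, that of Cdh23 to Pcdh15 from 0.05 to 0.74 and that of Myo7a to Ush1c from -0.48 to 0.12. The cause of these shifts was not tested.

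Same-numbered libraries of WT and KO had correlations of 0.419, -0.24, -0.17 and 0.21. The labels give them only a number in common. WT1 and KO1 had the highest estimated depths, 26000000 and 26400000 fragments, and the lowest hair cell marker means, 0.66 and 0.92. Whether the numbers mark a batch or shared handling is not stated. A replicate block called 838 genes and 0 members, and the ratio differences were 0.04, 0.26 and -0.19 with exact permutation p-values of 1, 0.75 and 0.875.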
